A study of Mus musculus with 20 samples.

Results

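The 34 genes described here encode the mitochondrial oxidation of fatty acids and the enzymes that supply it with acyl-CoA, and their RNA was measured in mouse heart. They were chosen by name, and each was read from the probe with the brightest heart signal among its probes. All 34 had a probe on the array, which held 27670 gene names, and all 34 were among the 14556 genes bright enough in heart to be tested. The files carry older names for Hadh (Hadhsc), Eci1 (Dci), Eci2 (Peci) and Hsd17b10 (Hadh2).

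Hearts came from 2 genotypes, MuRF1 +/+ and MuRF1 -/-, where MuRF1 is the muscle ubiquitin ligase encoded by Trim63. In each genotype 3 hearts came from mice on chow, 4 from mice fed fenofibrate for 3 weeks and 3 from mice fed fenofibrate for 8 weeks. The fenofibrate groups received the drug at 0.05% w/w within chow. Fenofibrate activates PPARα, a nuclear receptor that turns on genes of fatty acid use. The study asked how MuRF1 and this drug act together on the heart. The chow hearts are labelled 8 weeks, so the 3-week hearts have no chow hearts of the same duration, and within a genotype the 3-week and 8-week responses share their chow hearts. Hearts are called biological replicates in the labels, and mice strain-matched, with no sex, litter or account of how the MuRF1 allele was made. Every array set 1 heart (Cy5) against the same reference (Cy3), RNA pooled from whole C57BL/6 pups of postnatal day 1. A level below is the log2 ratio of heart over that reference and is comparable between hearts for a gene, not between genes. A difference is a difference of such levels.

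The heart takes most of its energy from long-chain fatty acids. Acyl-CoA synthetases activate them, the carnitine shuttle moves them through the mitochondrial membranes, and a spiral of dehydrogenation, hydration, a further dehydrogenation and thiolysis shortens them to acetyl-CoA. Malonyl-CoA, made by acetyl-CoA carboxylases and removed by malonyl-CoA decarboxylase, blocks the entry step. PPARα and the estrogen-related receptors are known activators of many of these genes in heart.

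Between 34.8% and 52.5% of heart probes were well above background on each array, 0 heart spots were saturated, and the number of arrays limits the precision. Arrays correlated with each other at 0.746 to 0.983, and 2 arrays stood apart from their groups. In MuRF1 +/+ 8-week replicate 2, 22 of the 34 members were lowest and 8 highest of its group, and in MuRF1 -/- 3-week replicate 4, 17 were lowest and 11 highest. Results that rest on these arrays are given with and without them. Trim63 was 10.1-fold lower in MuRF1 -/- hearts over the 3 diets (log2 difference -3.34 ± 0.18 SE, limma adjusted p = 4.31e-09). Pdk4, a pyruvate dehydrogenase kinase and PPARα target, rose 7.10-fold at 8 weeks in MuRF1 +/+ and 5.29-fold in MuRF1 -/- hearts (adjusted p = 0.000103 and 0.0014). At 3 weeks its log2 difference was 0.48 in MuRF1 +/+ and 0.06 in MuRF1 -/- hearts (adjusted p = 0.319 and 0.918). The arrays are of whole tissue, in which fewer cells of a type and less RNA per cell cannot be told apart. All 10 cardiomyocyte markers were measured, and the mean of the 6 with a value in every heart was 3.17 on chow, 3.12 at 3 weeks and 2.72 at 8 weeks in MuRF1 +/+ hearts, and 3.14, 3.05 and 3.03 in MuRF1 -/- hearts. The MuRF1 +/+ 8-week hearts ran from 2.59 to 2.81 and the other MuRF1 +/+ hearts from 2.96 to 3.28. Of the 10 markers 1 fell at 3 weeks in each genotype and at 8 weeks in MuRF1 +/+ hearts, 0 rose in these comparisons, and none passed at 8 weeks in MuRF1 -/- hearts (1 at an unadjusted p under 0.05 by limma). Their part in the results was not tested.

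Markers of other cells and Y-linked genes moved with the diet groups. The mean of 8 endothelial markers ran from 0.15 to 0.38 in chow hearts of both genotypes, from 0.46 to 0.83 at 3 weeks, from 0.42 to 1.36 at 8 weeks in MuRF1 +/+ and from 0.055 to 0.20 at 8 weeks in MuRF1 -/- hearts. Replicate 2 of the MuRF1 +/+ 8-week group had the value of 1.36. The mean of 6 fibroblast and matrix genes ran from -3.37 to -2.81 on chow, from -2.81 to -2.25 at 3 weeks, and from -3.33 to -2.39 (MuRF1 +/+) and -3.54 to -3.42 (MuRF1 -/-) at 8 weeks. Of the 8 endothelial markers 2, 2, 3 and 0 rose and 0 fell, and of the 8 fibroblast and matrix genes 4, 3, 2 and 0 rose and 0 fell, in the order 3 weeks MuRF1 +/+, 3 weeks MuRF1 -/-, 8 weeks MuRF1 +/+ and 8 weeks MuRF1 -/-. None of the 18 tested markers of adipocytes (6), red blood cells (3), skeletal muscle (6) and liver (3) passed in these 4 comparisons by limma, and at most 1 of each list reached an unadjusted p under 0.05 in any of them. The part of other cells in the results below was not tested. The mean of 3 atrial markers was 0.51 in MuRF1 -/- 3-week replicate 4 and between -1.52 and -0.49 in the other 19 hearts. The mean of the Y-linked genes Ddx3y and Eif2s3y lay between 1.18 and 1.61 in all 6 chow hearts and between -1.39 and -0.24 in all 8 hearts at 3 weeks. At 8 weeks it was -0.92, -0.77 and -0.52 in MuRF1 +/+ hearts, and 1.45, -0.81 and 1.34 in MuRF1 -/- replicates 1, 2 and 3. Xist, which silences an X chromosome in female cells, lay between -4.24 and -3.49 in the chow hearts and between -0.50 and 0.20 at 3 weeks. Its 8-week levels were -2.70, -0.90 and -2.04 in MuRF1 +/+ hearts and -3.51, -2.72 and -4.05 in MuRF1 -/- hearts, in the order of replicates, so the 8-week hearts with a low Y-linked level differed in Xist from those at 3 weeks. In MuRF1 +/+ hearts and at 3 weeks in MuRF1 -/- hearts, diet and Y-linked level therefore cannot be told apart.

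Few of the 34 genes passed the threshold on fenofibrate against chow, and 7 of the 8 calls at 3 weeks were falls. Short-chain acyl-CoA dehydrogenase (Acads) fell in both genotypes at 3 weeks, and the synthetase Acsl6 and the dehydrogenase Acad10 fell with it. Against chow, 3 members fell and 0 rose at 3 weeks in MuRF1 +/+ hearts, or 8.82% of the 34, where 24.3% of all genes tested passed the threshold (limma, Benjamini-Hochberg adjusted p under 0.05 over all genes tested). In MuRF1 -/- hearts 4 fell and 1 rose at 3 weeks, or 14.7%, against 26.4% of all genes. At 8 weeks 2 fell and 1 rose in MuRF1 +/+ hearts, 8.82% against 14%. None of the 34 passed at 8 weeks in MuRF1 -/- hearts, where 1.83% of all genes did, 1 member reached an unadjusted p under 0.05 and the smallest adjusted p was 0.148 (Acss1). In each of these 4 comparisons the members' share was below that of all genes. The median log2 difference of the members was -0.057, -0.097, -0.21 and 0.096 in that order, and that of all genes 0.010, -0.0081, 0.029 and -0.0075. Groups without overlap were common among the 14556 genes. At 3 weeks in MuRF1 +/+ hearts 3408 genes lay wholly above chow and 3202 wholly below, with 4 and 12 members among them. In MuRF1 -/- hearts these were 2512 and 2146 genes, with 1 and 6 members. At 8 weeks in MuRF1 +/+ hearts they were 1954 and 2353 genes, with 1 and 6 members.

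Without the 2 arrays that stood apart, 8 members fell and 1 rose at 3 weeks in MuRF1 +/+ hearts, with 36.3% of all genes past the threshold. Then 8 fell and 2 rose at 3 weeks in MuRF1 -/- hearts, with 36.2% of all genes. Without them 2 rose and 0 fell at 8 weeks in MuRF1 +/+ hearts (10.1% of all genes), and 1 rose in MuRF1 -/- hearts (6.33%). The members' median at 8 weeks in MuRF1 +/+ hearts was then 0.018, with 17 of 34 above 0. Scan sets here are the 5 sets of 4 arrays that share a scan date. With scan set as a block, 4, 3, 2 and 0 members passed against chow. The order is 3 weeks MuRF1 +/+, 3 weeks MuRF1 -/-, 8 weeks MuRF1 +/+ and 8 weeks MuRF1 -/-. Of all genes 20%, 23.2%, 8.46% and 0.412% passed with that block. With a term for the Y-linked level in the fit, 0 members passed in any of these 4 comparisons, 4, 4, 6 and 1 reached an unadjusted p under 0.05 by limma, and 2.35%, 2.97%, 0.495% and 1.07% of all genes passed, in that same order. Except at 8 weeks in MuRF1 -/- hearts, the Y-linked level followed diet. A call lost there with this term therefore does not tell the 2 apart.

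**Figure D1:**
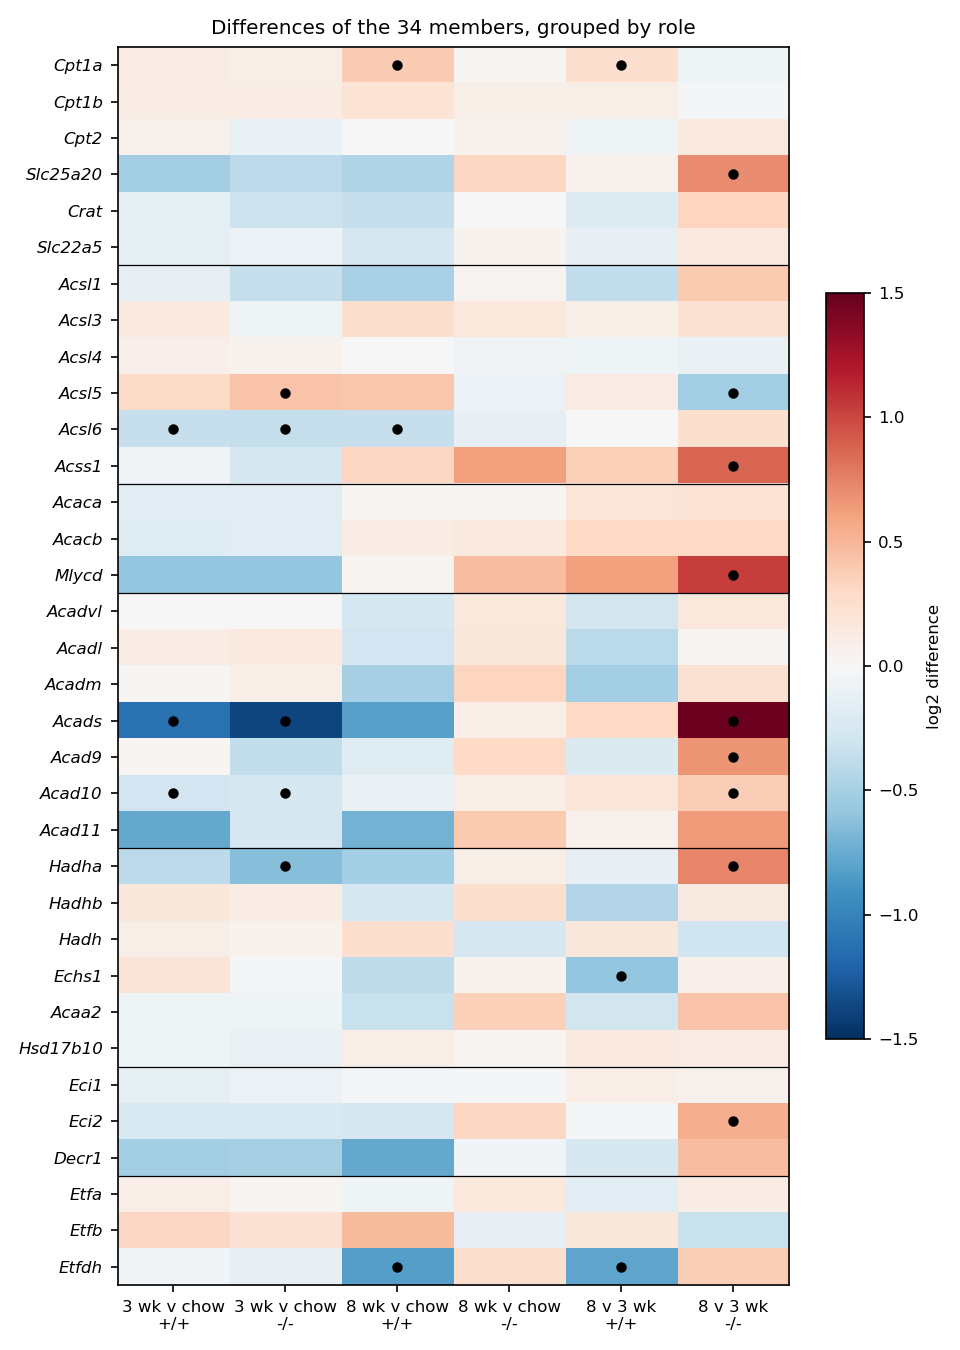
Log2 differences of the 34 members (rows, with lines between the roles) in 6 comparisons (columns): fenofibrate for 3 weeks and for 8 weeks against chow, and 8 against 3 weeks, in each genotype. Colour gives the log2 difference and a black dot an adjusted p under 0.05; dots number 3, 5, 3, 0, 3 and 9 from left to right, and the darkest blue cells are those of Acads at 3 weeks.

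The carnitine shuttle and carnitine uptake were represented by Cpt1a, Cpt1b, Cpt2, Slc25a20, Crat and Slc22a5. Cpt1a, the liver-type carnitine palmitoyltransferase of the outer membrane, was the member of this group that rose. Its levels in MuRF1 +/+ hearts were -1.21, -1.20 and -1.31 on chow, -1.16, -1.18, -1.10 and -1.03 at 3 weeks, and -0.92, -0.82 and -0.84 at 8 weeks. The 8-week hearts lay above all other MuRF1 +/+ hearts. In MuRF1 -/- hearts the levels were -1.15, -1.21 and -1.26 on chow, -1.18, -1.02, -1.14 and -1.08 at 3 weeks, and -1.24, -0.999 and -1.29 at 8 weeks, with overlapping groups. Cpt1a rose by 0.38 ± 0.086 (SE) at 8 weeks in MuRF1 +/+ hearts, 1.30-fold (adjusted p = 0.00816), and differed by 0.03 in MuRF1 -/- hearts (adjusted p = 0.969). Without the array that stood apart the rise was 0.36 (adjusted p = 0.0177), and without chow replicate 3 it missed the threshold (adjusted p = 0.0551). With the Y-linked term it was 0.20 (adjusted p = 0.373). The difference between the 2 genotypes' 8-week responses was -0.35 and did not pass (adjusted p = 0.222). A second Cpt1a probe stood at -0.20 ± 0.041 on chow and -0.070 ± 0.091 at 8 weeks in MuRF1 +/+ hearts, where it did not pass. In MuRF1 -/- hearts it stood at -0.18 ± 0.13 on chow and 0.018 ± 0.087 at 8 weeks. On that probe the larger rise was thus in MuRF1 -/- hearts.

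The muscle-type transferase Cpt1b, the predominant form of the heart, stood at 2.05 ± 0.092 (SD, n = 3) on chow and at 2.16 ± 0.057 (n = 4) and 2.25 ± 0.19 (n = 3) after 3 and 8 weeks in MuRF1 +/+ hearts. The MuRF1 -/- groups stood at 2.09 ± 0.18, 2.21 ± 0.20 and 2.19 ± 0.13, and no diet comparison passed (log2 differences 0.094 to 0.20). Cpt2, the transferase of the inner membrane, had group means from 2.34 to 2.50 and differences from -0.10 to 0.061. Slc25a20, the carnitine-acylcarnitine carrier, was lower in all 4 MuRF1 +/+ hearts at 3 weeks (0.084 to 0.47) than in the 3 on chow (0.76 to 0.87), but did not pass (difference -0.52, adjusted p = 0.147). It passed without the 2 arrays that stood apart (adjusted p = 0.0148). Crat, the carnitine acetyltransferase that buffers acetyl-CoA, had differences of -0.15 and -0.32 at 3 weeks (adjusted p = 0.445 and 0.0819). Slc22a5, the plasma membrane carnitine transporter, had differences from -0.26 to 0.058 with a smallest adjusted p of 0.0602, at 8 weeks in MuRF1 +/+ hearts.

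Among the acyl-CoA synthetases, Acsl6 fell at 3 weeks in both genotypes and Acsl5 rose in MuRF1 -/- hearts. Acsl6, a long-chain synthetase, had levels of 0.50, 0.52 and 0.47 on chow, 0.26, 0.20, 0.10 and 0.051 at 3 weeks, and 0.28, -0.093 and 0.26 at 8 weeks in MuRF1 +/+ hearts. Its levels in MuRF1 -/- hearts were 0.54, 0.55 and 0.61, then 0.28, 0.34, 0.27 and -0.041, then 0.46, 0.21 and 0.66. All 8 hearts at 3 weeks lay below all 6 hearts on chow. Acsl6 fell by 0.35 ± 0.11 at 3 weeks in MuRF1 +/+ (1.27-fold lower, adjusted p = 0.0231) and by 0.35 ± 0.11 in MuRF1 -/- hearts (1.28-fold lower, adjusted p = 0.0188). At 8 weeks it fell by 0.35 ± 0.11 in MuRF1 +/+ hearts (adjusted p = 0.0453), which became -0.23 without replicate 2 (adjusted p = 0.26), and that call was also lost without any chow replicate. The 3-week call in MuRF1 +/+ hearts was lost without any of the 3 chow hearts or without 3-week replicates 3 or 4 (adjusted p up to 0.0672), and that in MuRF1 -/- hearts without 3-week replicate 4 or chow replicate 3 (up to 0.0737). With Agilent's log ratio the differences of Acsl6 at 3 weeks were -1.04 and -1.31 (adjusted p = 0.152 and 0.0606), with the Y-linked term -0.20 and -0.21 (adjusted p = 0.542 and 0.556), and in MuRF1 -/- hearts -0.20 with normexp on all spots (adjusted p = 0.312). The 8-week difference was -1.25 with Agilent's log ratio (adjusted p = 0.134), and the 3 calls held under 9 of 20, 13 of 20 and 6 of 19 other settings. Another measured probe of Acsl6 passed in the same direction in all 3 comparisons.

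Acsl5, a long-chain synthetase and known PPARα target, had levels of -2.08, -2.13 and -2.20 on chow, -2.01, -1.85, -1.80 and -1.74 at 3 weeks and -2.08, -1.24 and -1.85 at 8 weeks in MuRF1 +/+ hearts. In MuRF1 -/- hearts the levels were -2.03, -2.15 and -2.27 on chow, -1.76, -1.69, -1.77 and -1.67 at 3 weeks, and -2.11 and -2.37 at 8 weeks, where the spot of replicate 3 was missing. The 3-week hearts of each genotype lay above its chow hearts. Acsl5 rose by 0.43 ± 0.14 at 3 weeks in MuRF1 -/- hearts (1.34-fold, adjusted p = 0.0349) and differed by 0.29 in MuRF1 +/+ hearts (adjusted p = 0.157). The call in MuRF1 -/- hearts was lost without any 1 of the 4 hearts at 3 weeks or without chow replicates 2 or 3 (adjusted p up to 0.14), its difference was 0.20 with normexp on all spots (adjusted p = 0.447), and without both arrays that stood apart it rose in MuRF1 -/- and in MuRF1 +/+ hearts (adjusted p = 0.0031 and 0.0183).

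Acsl1, the main long-chain synthetase of the heart, had differences from -0.49 to 0.046 and adjusted p of 0.25 or more in the 4 diet comparisons. Its other 2 measured probes stood at 0.41 and 0.54 on chow and at -0.071 and -0.19 at 3 weeks in MuRF1 +/+ hearts. In MuRF1 -/- hearts they stood at 0.34 and 0.31 against -0.15 and -0.24. On both probes every 3-week heart lay below every chow heart of its genotype. The same held for 3202 of the 14556 genes in MuRF1 +/+ and 2146 in MuRF1 -/- hearts, each on its brightest probe. Whether these 2 probes passed the threshold is not given here. Acsl3 and Acsl4, long-chain synthetases, had differences from -0.067 to 0.24. Acss1, which makes acetyl-CoA from acetate in the mitochondrion, had levels of 2.88, 2.69 and 2.77 on chow, 2.81, 2.65, 2.86 and 2.59 at 3 weeks, and 3.38, 2.45 and 3.43 at 8 weeks in MuRF1 +/+ hearts. The MuRF1 -/- hearts stood at 2.31, 2.78 and 3.00, then 2.27, 2.51, 2.38 and 2.60, then 3.18, 3.36 and 3.40. The 8-week hearts were the highest in each genotype apart from MuRF1 +/+ replicate 2. The 8-week differences from chow were 0.31 (adjusted p = 0.301) and 0.62 (adjusted p = 0.148), and without the arrays that stood apart Acss1 rose by 0.62 ± 0.15 and 0.62 ± 0.13 (adjusted p = 0.0123 and 0.00904).

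The malonyl-CoA enzymes comprised the carboxylases Acaca and Acacb and the decarboxylase Mlycd. Mlycd had levels of 1.86, 1.60 and 1.80 on chow, 0.82, 1.35, 1.28 and 1.23 at 3 weeks, and 2.26, 1.07 and 2.03 at 8 weeks in MuRF1 +/+ hearts. The MuRF1 -/- hearts had 1.65, 1.87 and 1.88, then 1.18, 1.32, 1.22 and 1.19, then 1.90, 2.51 and 2.37. All 3-week hearts lay below all chow hearts of their genotype. The 3-week differences were -0.58 in both genotypes and narrowly missed the threshold (adjusted p = 0.0535 and 0.0529), and both passed without the arrays that stood apart (adjusted p = 0.00337 and 0.00703). Acacb, the carboxylase that is prominent in heart and sits at the mitochondrial surface, had differences of -0.19 and -0.15 at 3 weeks (adjusted p = 0.254 and 0.358). Acaca, the carboxylase of lipid synthesis, had differences of -0.15 and -0.17 (adjusted p = 0.189 and 0.145). A second Acaca probe was well above background on 4 of 4 arrays in each 3-week group and on 0 arrays elsewhere, with levels of 0.71 ± 0.40 and 1.06 ± 0.75 at 3 weeks, so the 2 probes disagreed.

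**Figure D2:**
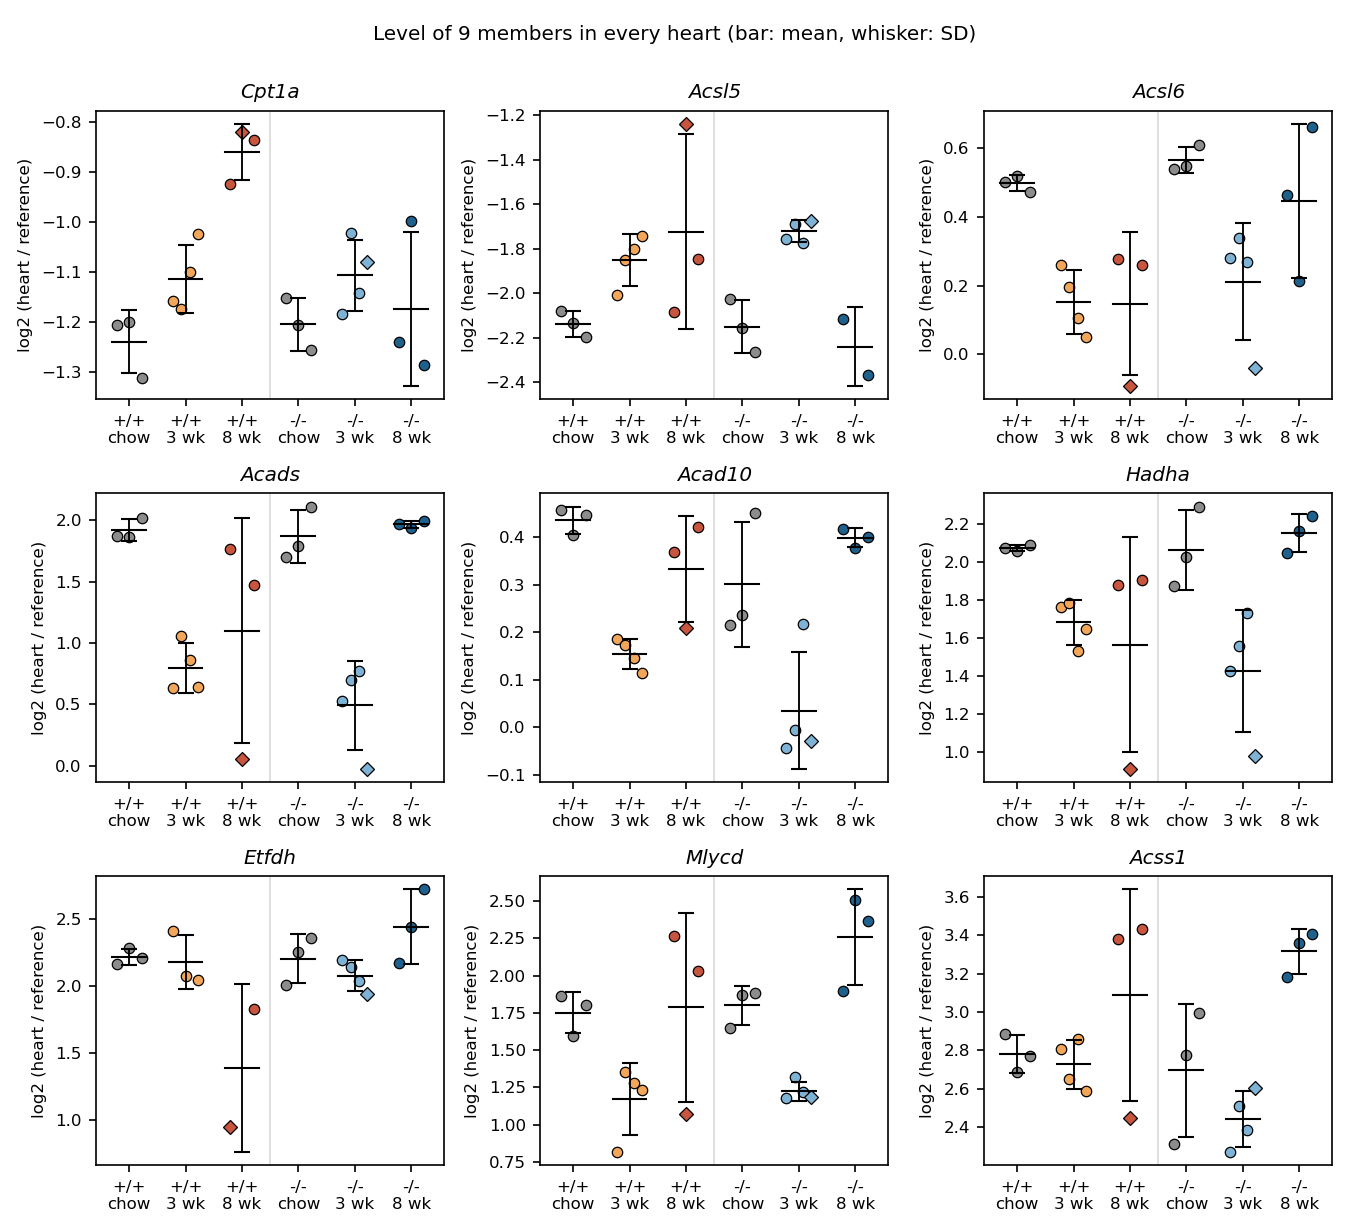
Levels of 9 members in every heart, as log2 of heart over reference, in the 6 groups (+/+ and -/- on chow and on fenofibrate for 3 and 8 weeks; 3 or 4 hearts each, fewer where a spot was missing). Points are hearts, diamonds the 2 arrays that stood apart, bars group means and whiskers the SD; Acads was lower in all 8 hearts at 3 weeks than in all 6 on chow, and at 8 weeks its lowest heart was the diamond at 0.058.

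The acyl-CoA dehydrogenases held the clearest change. Acads oxidises short chains, Acadm medium chains, Acadl and Acadvl long chains, Acad9 also serves complex I assembly, and Acad10 and Acad11 are less studied relatives. Acads had levels of 1.87, 1.86 and 2.02 on chow, 0.63, 1.06, 0.86 and 0.64 at 3 weeks, and 1.77, 0.058 and 1.47 at 8 weeks in MuRF1 +/+ hearts. The MuRF1 -/- hearts had 1.70, 1.79 and 2.11, then 0.52, 0.70, 0.77 and -0.027, then 1.96, 1.94 and 1.99. The 8 hearts at 3 weeks did not overlap the 6 on chow, and in MuRF1 -/- hearts the 8-week levels were back among those on chow.

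Acads fell by 1.12 ± 0.28 at 3 weeks in MuRF1 +/+ hearts (2.17-fold lower, adjusted p = 0.0065) and by 1.38 ± 0.28 in MuRF1 -/- hearts (2.60-fold lower, adjusted p = 0.00135). Each call held without any 1 heart of its groups. Within scan sets the differences ran from -1.24 to -0.80 in 2 sets and from -1.34 to -1.09 in 3 sets. With the term for the Y-linked level they were -1.33 (adjusted p = 0.155) and -1.58 (adjusted p = 0.0902). At 8 weeks the difference was -0.82 ± 0.29 in MuRF1 +/+ hearts (adjusted p = 0.0676) and 0.10 in MuRF1 -/- hearts. Within the 2 scan sets that held both MuRF1 +/+ groups it was -1.96 and -0.096. The 250 bases before the Acads start site (RefSeq, GRCm38.p6, chr5:115119347-115119596, minus strand, shown 5′ to 3′ for the member with the clearest fall) held neither motif searched below.
Acads: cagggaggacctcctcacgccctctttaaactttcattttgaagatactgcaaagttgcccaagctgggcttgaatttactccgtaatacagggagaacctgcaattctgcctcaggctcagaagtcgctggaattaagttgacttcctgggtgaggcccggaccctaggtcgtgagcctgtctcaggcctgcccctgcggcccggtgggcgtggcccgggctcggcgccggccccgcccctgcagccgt

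Acad10 had levels of 0.46, 0.40 and 0.45 on chow, 0.19, 0.17, 0.15 and 0.11 at 3 weeks, and 0.37, 0.21 and 0.42 at 8 weeks in MuRF1 +/+ hearts. Levels in MuRF1 -/- hearts were 0.22, 0.24 and 0.45, then -0.043, -0.0050, 0.22 and -0.029, then 0.42, 0.38 and 0.40. Acad10 fell by 0.28 ± 0.074 (1.22-fold lower, adjusted p = 0.00959) and by 0.27 ± 0.074 (1.20-fold lower, adjusted p = 0.0124) at 3 weeks. The groups overlapped in MuRF1 -/- hearts, and the call was lost without chow replicate 3 (adjusted p = 0.099), while Agilent's log ratio gave a fall of 0.74 there (adjusted p = 0.0126). It was also lost with normexp on all spots, the heart channel alone, the deposited values, only the groups compared and the Y-linked term (adjusted p up to 0.29). In MuRF1 +/+ hearts the call was lost with Agilent's log ratio, the deposited values and the Y-linked term (adjusted p up to 0.251). Acad11 was lower in all MuRF1 +/+ hearts at 3 weeks (0.37 ± 0.15, n = 4) than on chow (1.14 ± 0.11, n = 3), and its difference of -0.77 missed the threshold (adjusted p = 0.0633), which it passed without the arrays that stood apart (adjusted p = 0.0108).

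The dehydrogenases of medium and long chains did not pass in any diet comparison. Acadm differed by 0.014 and 0.09 at 3 weeks and by -0.50 and 0.32 at 8 weeks, where its SD in the MuRF1 +/+ group was 0.58. Acadl differed by 0.11, 0.15, -0.29 and 0.17 in the same order. Acadvl, whose spot was missing in 1 MuRF1 -/- heart at 8 weeks, differed by 0.0075, 0.00026, -0.26 and 0.16. Acad9 differed by 0.034, -0.37, -0.18 and 0.30. The smallest adjusted p among these 16 differences was 0.201.

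Of the enzymes of the hydration, second dehydrogenation and thiolysis steps, Hadha passed in a diet comparison. Hadha and Hadhb encode the α and β subunits of the mitochondrial trifunctional protein, which carries out these steps on long chains. Hadha had levels of 2.07, 2.06 and 2.09 on chow, 1.76, 1.79, 1.53 and 1.65 at 3 weeks, and 1.88, 0.91 and 1.91 at 8 weeks in MuRF1 +/+ hearts. Those of MuRF1 -/- mice had 1.88, 2.03 and 2.29, then 1.43, 1.56, 1.73 and 0.98, then 2.05, 2.16 and 2.24. All hearts at 3 weeks lay below all on chow.

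Hadha fell by 0.64 ± 0.20 at 3 weeks in MuRF1 -/- hearts (1.56-fold lower, adjusted p = 0.0217), and differed by -0.39 in MuRF1 +/+ hearts (adjusted p = 0.157). The call was lost without 3-week replicate 4 or without chow replicates 2 or 3 (adjusted p up to 0.118), whereas without both arrays that stood apart Hadha fell in both genotypes, by 0.39 and 0.49 (adjusted p = 0.00407 and 0.00139). A second Hadha probe was well above background on 4 and 3 of 4 arrays at 3 weeks and on 0 arrays elsewhere, with levels of 0.25 ± 0.097 and 0.29 ± 0.11 at 3 weeks against -0.11 and -0.072 on chow, a direction opposite to that of the probe used. The mean over all Hadha probes differed by -0.14 (adjusted p = 0.409).

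Hadhb had levels of 1.61, 1.53 and 1.44 on chow, 1.75, 1.67, 1.63 and 1.73 at 3 weeks, and 1.80, 0.55 and 1.44 at 8 weeks in MuRF1 +/+ hearts. The MuRF1 -/- hearts had 1.42, 1.48 and 1.50, then 1.67, 1.88, 1.57 and 1.18, then 1.57, 1.67 and 1.90. Its 3-week differences were 0.17 and 0.11 (adjusted p = 0.594 and 0.738), above 0 where those of Hadha were below it. The start sites of the 2 genes lie 273 bases apart on chromosome 5 and point away from each other. The 250 bases before the Hadhb start (RefSeq, GRCm38.p6, chr5:30155003-30155252, plus strand, shown 5′ to 3′ as the stretch that separates the 2 genes) held neither motif.
Hadhb: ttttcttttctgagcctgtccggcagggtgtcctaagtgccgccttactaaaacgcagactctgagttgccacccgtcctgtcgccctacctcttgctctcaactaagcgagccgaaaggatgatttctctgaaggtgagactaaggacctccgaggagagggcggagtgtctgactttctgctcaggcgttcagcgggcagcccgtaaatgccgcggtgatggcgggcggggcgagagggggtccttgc

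Echs1, the short-chain enoyl-CoA hydratase, Hadh, the hydroxyacyl-CoA dehydrogenase of shorter chains, Acaa2, a thiolase, and Hsd17b10, which also acts in isoleucine breakdown, did not pass against chow. Their 16 differences ran from -0.38 (Echs1, 8 weeks, MuRF1 +/+) to 0.35 (Acaa2, 8 weeks, MuRF1 -/-), with a smallest adjusted p of 0.19. The auxiliary enzymes for unsaturated chains, the isomerases Eci1 and Eci2 and the dienoyl-CoA reductase Decr1, did not pass either. Decr1 was lower in all MuRF1 +/+ hearts at 3 weeks (1.60 ± 0.17, n = 4) than on chow (2.12 ± 0.068, n = 3), a difference of -0.52 (adjusted p = 0.212) that passed without the arrays that stood apart (adjusted p = 0.0066).

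Etfa, Etfb and Etfdh pass electrons from the acyl-CoA dehydrogenases to ubiquinone. Etfdh had levels of 2.16, 2.28 and 2.21 on chow, 2.41, 2.08 and 2.05 at 3 weeks, and 0.95 and 1.83 at 8 weeks in MuRF1 +/+ hearts, with 1 spot missing in each treated group. Hearts of MuRF1 -/- mice had 2.01, 2.25 and 2.36, then 2.19, 2.14, 2.04 and 1.94, then 2.17, 2.44 and 2.72. Etfdh fell by 0.83 ± 0.21 at 8 weeks in MuRF1 +/+ hearts (1.78-fold lower, adjusted p = 0.0184), a value from 2 hearts. Leaving either out left 1 heart, which was assumed to vary like the other groups: without replicate 2 the difference was -0.39 (adjusted p = 0.298), and without replicate 3, which left the array that stood apart, -1.27 (adjusted p = 0.00184). The call was also lost without chow replicate 3, with the deposited values, as the mean over all probes, with only the groups compared and with the Y-linked term. A second Etfdh probe had a value in all 3 hearts at 8 weeks and did not pass. It stood at 0.69 ± 0.52 at 8 weeks and 0.96 ± 0.18 on chow in MuRF1 +/+ hearts, with overlapping groups. Etfa had differences from -0.059 to 0.15 and Etfb from -0.12 to 0.48 in the 4 diet comparisons, with a smallest adjusted p of 0.179.

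Between 3 and 8 weeks on fenofibrate, members rose in MuRF1 -/- hearts. There 8 rose and 1 fell, or 26.5% of the 34, where 31.5% of all genes passed (13.5% higher and 18% lower), and the members' median was 0.23 against 0.0013 for all genes, with 28 of 34 above 0. Acads rose 2.78-fold (1.47 ± 0.28, adjusted p = 0.00063), Mlycd 2.05-fold (1.03 ± 0.21, adjusted p = 0.00132) and Acss1 1.83-fold (0.87 ± 0.19, adjusted p = 0.00227). Hadha rose by 0.73 ± 0.20 (adjusted p = 0.00873) and Acad10 by 0.36 ± 0.074 (adjusted p = 0.00117). These 5 calls held without any 1 heart. The mean over all Hadha probes differed by 0.19 (adjusted p = 0.225), and Acad10 rose by 1.02 with Agilent's log ratio (adjusted p = 0.00102).

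The other rises in MuRF1 -/- hearts were of Slc25a20 (0.70, adjusted p = 0.041), Acad9 (0.67, adjusted p = 0.0221) and Eci2 (0.54, adjusted p = 0.0351), and Acsl5 fell by 0.52 (adjusted p = 0.0215). Each of these 4 was lost without 8-week replicate 2, Slc25a20 also without 3-week replicates 3 or 4 or 8-week replicate 3, Acad9 without 3-week replicate 3, and Eci2 without 3-week replicates 1 or 3 or 8-week replicate 3, with adjusted p up to 0.165, 0.128, 0.124 and 0.196 for Slc25a20, Acad9, Eci2 and Acsl5. For Acsl5 that left a single 8-week heart, since the spot of replicate 3 was missing. Slc25a20 had levels of 0.47, 0.75, 0.24 and -0.42 at 3 weeks and 0.71, 0.96 and 1.21 at 8 weeks, which overlapped. Acad9 had levels of 0.059, 0.12, -0.12 and 0.21 at 3 weeks and 0.63, 1.06 and 0.51 at 8 weeks, which did not overlap. The same held for 2590 genes that were higher at 8 weeks, 9 of them members. Eci2 had 0.21, 0.65, 0.38 and 0.41, then 0.75, 1.09 and 1.03.

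In MuRF1 +/+ hearts 1 member rose and 2 fell between 3 and 8 weeks, 8.82% against 17.4% of all genes (7.88% higher and 9.54% lower). Cpt1a rose by 0.26 ± 0.081 (adjusted p = 0.0358), Echs1 fell by 0.58 ± 0.19 (adjusted p = 0.0413) and Etfdh by 0.79 ± 0.21 (adjusted p = 0.0177). The levels of Echs1 were 1.05, 0.95, 0.97 and 0.82 at 3 weeks and 0.68, -0.38 and 0.81 at 8 weeks. Without 8-week replicate 2 the differences were -0.20 for Echs1 (adjusted p = 0.179) and -0.35 for Etfdh (adjusted p = 0.253), the latter from a single 8-week heart assumed to vary like the other groups. Etfdh differed by -1.23 without 8-week replicate 3 (adjusted p = 0.00133), also from a single heart, and by -0.16 as the mean over all its probes (adjusted p = 0.688). Etfdh was also lost without 3-week replicate 1, Echs1 without any of the 4 hearts at 3 weeks, and Cpt1a without 3-week replicates 1, 2 or 3 or 8-week replicates 2 or 3 (adjusted p up to 0.0896).

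The set changed when the 2 arrays that stood apart were left out. Then 5 members rose and 0 fell in MuRF1 +/+ hearts (23.9% of all genes passed): Mlycd by 0.98, Acads by 0.82, Acss1 by 0.68, Hsd17b10 by 0.34 and Acad10 by 0.24. Under that setting 12 rose and 1 fell in MuRF1 -/- hearts (41% of all genes). Acads, Mlycd, Acss1 and Acad10 were among the risers in both genotypes. The Y-linked level differed between the 3-week and 8-week hearts of MuRF1 -/- mice. With it as a covariate 4 members rose there, where 13.5% of all genes passed: Acads by 1.62, Mlycd by 1.24, Hadha by 0.89 and Acad10 by 0.37. The 4 hearts at 8 weeks with a low Y-linked level, MuRF1 +/+ replicates 1, 2 and 3 and MuRF1 -/- replicate 2, had Acads levels of 1.77, 0.058, 1.47 and 1.94. The value of 0.058, from the array that stood apart, lay below 7 of the 8 hearts at 3 weeks, and the other values lay above all 8. Xist in these 4 hearts was -2.70, -0.90, -2.04 and -2.72, against -0.50 to 0.20 at 3 weeks. In the array that stood apart 16 of the 34 members, not Acads, were the lowest of all arrays. The part of Xist or of that array in the level of Acads was not tested.

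**Figure D3:**
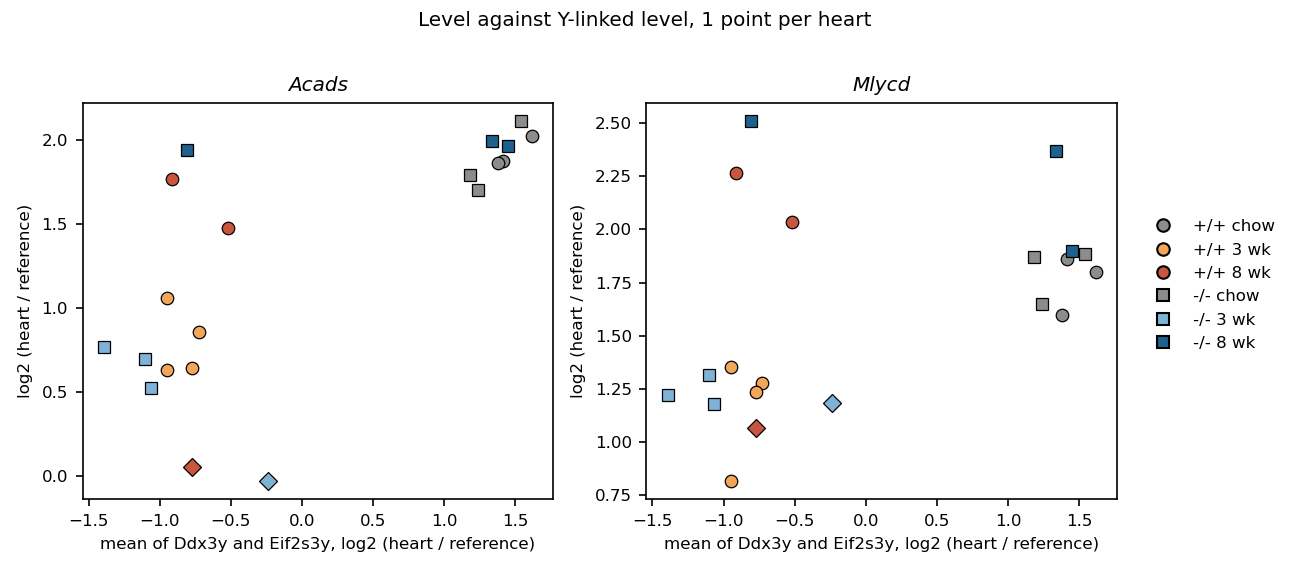
Levels of Acads and Mlycd (vertical, log2 of heart over reference) against the mean level of the Y-linked genes Ddx3y and Eif2s3y (horizontal, same unit), 1 point per heart, with circles for MuRF1 +/+, squares for MuRF1 -/- and diamonds for the 2 arrays that stood apart. The chow hearts sit at 1.18 or above on the horizontal axis and the 3-week hearts at -0.24 or below; of the 4 hearts at 8 weeks with a low Y-linked level, 3 lie at 1.47 or above for Acads and the diamond lies at 0.058.

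MuRF1 genotype separated none of the 34 genes at the threshold. On chow 0 members passed and 0 reached an unadjusted p under 0.05 by limma (0.0893% of all genes passed), and the members' differences, MuRF1 -/- minus MuRF1 +/+, ran from -0.48 (Acad11) to 0.11 (Cpt2). At 3 weeks 0 passed and 2 reached an unadjusted p under 0.05, both lower in MuRF1 -/- hearts (0.385% of all genes passed), with the smallest adjusted p, 0.779, for Acad9. Over the 3 diets 0 passed and 2 reached an unadjusted p under 0.05, both higher in MuRF1 -/- hearts (0.192% of all genes passed).

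At 8 weeks 0 members passed (0.0893% of all genes did, 0.0481% higher and 0.0412% lower in MuRF1 -/- hearts), while 14 reached an unadjusted p under 0.05, 10 higher and 4 lower in MuRF1 -/- hearts. The smallest adjusted p was that of Etfdh (1.05 ± 0.21, adjusted p = 0.0638), followed by Cpt1a (-0.32, adjusted p = 0.091). On a second Cpt1a probe the MuRF1 -/- mean at 8 weeks (0.018) lay above that of MuRF1 +/+ hearts (-0.070). The members' median was 0.26, and 0.094 without the 2 arrays that stood apart. Without MuRF1 +/+ 8-week replicate 1, 15 members were higher and 4 lower in MuRF1 -/- hearts, which left replicate 2, the array that stood apart, and replicate 3 as that group. Without replicate 3, 1 member passed. No count of all genes is set beside the 14, the 15 and 4 or the 1, so they do not set the members apart from other genes.

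The difference between the genotypes' responses was tested directly. For the 3-week responses 0 members passed and 0 reached an unadjusted p under 0.05 by limma, and of all genes 0 passed and 356 reached it. For the 8-week responses 0 members passed and 8 reached an unadjusted p under 0.05, 6 above and 2 below 0 (0.00687% of all genes passed), with the smallest adjusted p, 0.215, for Etfdh. Without MuRF1 +/+ 8-week replicate 1, 6 members passed, and no count of all genes is set beside these 8 and 6 members. A call in 1 genotype and not in the other, as for Cpt1a, Acsl5, Hadha and Etfdh, is thus not shown to differ between genotypes.

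Most members had a single probe. Of the 34, 11 had another measured probe, which covered 9 of the 23 calls above. In 6 of these the other probes had the same sign and in 3 at least 1 had the opposite sign, namely Hadha at 3 weeks and between 3 and 8 weeks in MuRF1 -/- hearts and Etfdh between 3 and 8 weeks in MuRF1 +/+ hearts. In 4 another probe passed in the same direction.

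The promoter windows, from 250 bases before to 50 after the start in the RefSeq table (GRCm38.p6), were found for 29 of the 34 members and not for Cpt1b, Crat, Acad9, Acaa2 and Decr1. The PPAR/RXR direct repeat, a pair of AGGTCA copies 1 base apart, was searched on both strands with up to 2 mismatches in its 12 fixed bases, and occurred in 3 members (10.3%) and in 1190 of 27025 genes (4.4%). The estrogen-related receptor element, TCAAGGTCA, was searched exactly on both strands and occurred in 1 member (3.45%) and in 126 genes (0.466%). The element also holds AGGTCA, so the 2 motifs can overlap. The matches are in capitals, 5′ to 3′ on the gene's strand, because they are the members in which either motif was found: Echs1 at chr7:140116468-140116528 (minus strand), Etfa at chr9:55512284-55512344 (minus strand), Slc25a20 at chr9:108662142-108662154 (plus strand, bases 6 to 18 after the start) and Acsl6 at chr11:54303633-54303689 (plus strand).
Echs1: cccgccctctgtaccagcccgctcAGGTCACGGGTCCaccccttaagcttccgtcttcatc
Etfa: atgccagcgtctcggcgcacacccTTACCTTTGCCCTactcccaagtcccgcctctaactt
Slc25a20: AGGTGAAAGGTCG
Acsl6: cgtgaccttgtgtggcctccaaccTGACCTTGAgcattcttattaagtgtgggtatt
The first 3 hold the direct repeat with 2 mismatches each, and Acsl6 the receptor element on the opposite strand. Echs1, Etfa and Slc25a20 did not pass in any comparison with chow, whereas Acsl6 fell in 3 of the 4. A match of letters is a description of the sequence.

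Genes around the pathway were read from lists of related genes. Of 19 other PPARα targets tested, 8 rose and 1 fell at 8 weeks in MuRF1 +/+ hearts (5.26% and 8.72% of all genes), and 3 rose and 0 fell in MuRF1 -/- hearts (0.852% and 0.982%). At 3 weeks 1 rose and 2 fell in MuRF1 +/+ hearts (12% and 12.3% of all genes), and 0 rose and 3 fell in MuRF1 -/- hearts (14.2% and 12.1%). Acot1, an acyl-CoA thioesterase whose value is uncertain because Acot2 is a near copy of it, rose 6.14-fold and 3.36-fold at 8 weeks (adjusted p = 0.000438 and 0.0245). Slc27a1, a fatty acid transporter, fell by 0.76 at 3 weeks in MuRF1 +/+ hearts (adjusted p = 0.038), and Plin5, a lipid droplet protein, by 0.69 and 1.10 in MuRF1 +/+ and MuRF1 -/- hearts (adjusted p = 0.0142 and 0.00045). G0s2, an inhibitor of triglyceride lipase, fell by 0.64 at 3 weeks in MuRF1 -/- hearts (adjusted p = 0.00637). The fall of Slc27a1 was lost without any 1 of its 7 hearts (adjusted p up to 0.186 over the settings tried), that of Plin5 in MuRF1 +/+ hearts without chow replicates 1 or 3, and the rise of Acot1 in MuRF1 -/- hearts without 8-week replicates 2 or 3 or chow replicates 1 or 2 (up to 0.203). Of the 30 calls named from the lists of related genes, 26 were lost with the term for the Y-linked level, which followed diet except at 8 weeks in MuRF1 -/- hearts. The mean of 17 of these targets was -0.23 ± 0.050 (SD) on chow, -0.22 ± 0.079 at 3 weeks and 0.47 ± 0.18 at 8 weeks in MuRF1 +/+ hearts, and -0.053 ± 0.039, -0.27 ± 0.13 and 0.42 ± 0.23 in MuRF1 -/- hearts. The mean of 31 members was 1.07 ± 0.039, 0.93 ± 0.030 and 0.91 ± 0.32, and 1.02 ± 0.098, 0.83 ± 0.093 and 1.15 ± 0.10, in the same order.

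**Figure D4:**
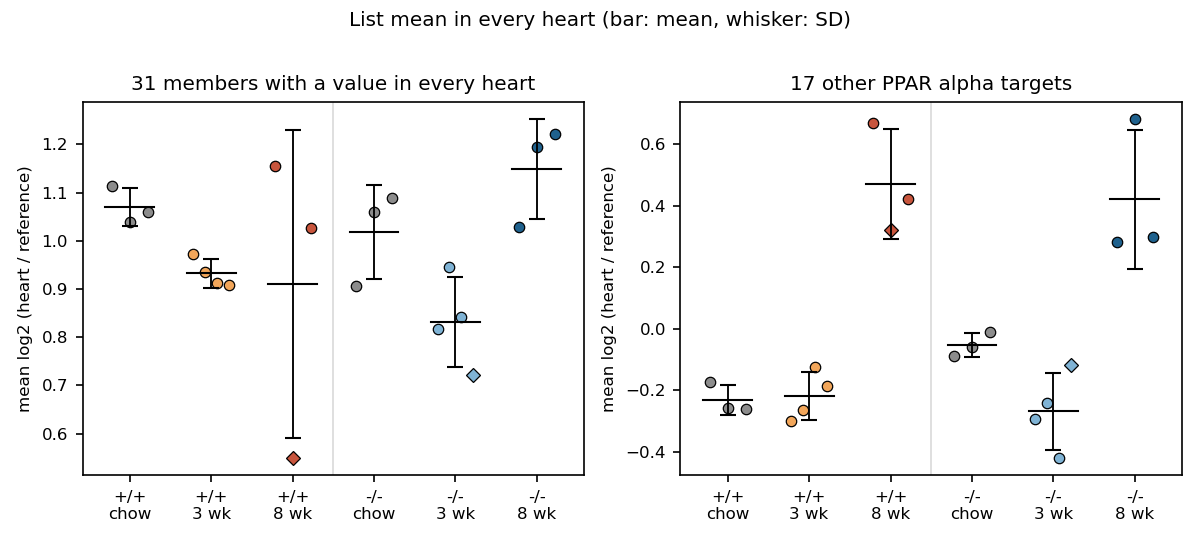
Mean level per heart, as log2 of heart over reference, of the 31 members (left) and the 17 other PPARα targets (right) that had a value in every heart, in the 6 groups. Points are hearts, diamonds the 2 arrays that stood apart, bars group means and whiskers the SD; the PPARα targets lie at 0.28 or above in all 6 hearts at 8 weeks and below 0 elsewhere, while the members run from 0.55 to 1.22 over all hearts.

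Of 22 regulators of fatty acid oxidation tested, 1 rose and 5 fell at 3 weeks in MuRF1 +/+ hearts (12% and 12.3% of all genes), 0 and 4 in MuRF1 -/- hearts (14.2% and 12.1%), 2 and 4 at 8 weeks in MuRF1 +/+ hearts (5.26% and 8.72%), and 0 and 2 in MuRF1 -/- hearts (0.852% and 0.982%). Esrra, the estrogen-related receptor α, fell by 0.72 and 0.75 at 3 weeks (adjusted p = 0.0033 and 0.00233), and Rxrb, a partner of PPARα, by 0.56 and 0.61 (adjusted p = 0.00312 and 0.00143). At 8 weeks Rxrg, another such partner, fell by 0.97 and 0.51 (adjusted p = 5.87e-05 and 0.0245), and Ppargc1b, a coactivator of these receptors, by 0.87 and 0.67 (adjusted p = 9.54e-05 and 0.00272). The mean over all Esrra probes differed by -0.19 and -0.20 (adjusted p = 0.27 and 0.245). The fall of Rxrg in MuRF1 -/- hearts was lost without any 1 of its 6 hearts (adjusted p up to 0.143 over the settings tried), and both falls of Ppargc1b held under all 19 other settings. Ppara itself and the coactivator Ppargc1a did not pass in any diet comparison, with differences from -0.36 to 0.18 and from -0.015 to 0.33.

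Peroxisomal fatty acid oxidation was represented by 16 tested genes, of which 4 fell and 0 rose at 3 weeks in each genotype, 2 fell at 8 weeks in MuRF1 +/+ and 0 passed in MuRF1 -/- hearts (1 at an unadjusted p under 0.05 by limma). Of all genes 12.3% and 12.1% fell at 3 weeks, in MuRF1 +/+ and MuRF1 -/- hearts, and 8.72% and 0.982% at 8 weeks. Hsd17b4, the peroxisomal bifunctional enzyme, fell by 0.44 and Acot8, a thioesterase, by 0.31 at 3 weeks in MuRF1 +/+ hearts (adjusted p = 0.00293 and 0.0239). Pex11a, a factor of peroxisome division, fell by 0.70 and Ech1, a dienoyl-CoA isomerase, by 0.64 at 3 weeks in MuRF1 -/- hearts (adjusted p = 0.000172 and 0.0313). At 8 weeks in MuRF1 +/+ hearts Abcd3, a peroxisomal acyl-CoA transporter, fell by 0.47 and Pex11a by 0.45 (adjusted p = 0.0315 and 0.0171). Calls were lost for Acot8 without 3-week replicate 1 or chow replicates 1 or 3, for Ech1 without 3-week replicates 1 or 4 or chow replicate 3, for Abcd3 without 8-week replicate 2 or any chow heart, and for Pex11a at 8 weeks without 8-week replicate 2 or chow replicates 2 or 3 (adjusted p up to 0.774, 0.325, 0.289 and 0.202 over the settings tried).

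Of 16 other mitochondrial acyl-CoA enzymes, at most 1 rose and 1 fell in any diet comparison (12% and 12.3% of all genes at 3 weeks in MuRF1 +/+ hearts, 14.2% and 12.1% at 3 weeks in MuRF1 -/- hearts, 5.26% and 8.72% at 8 weeks in MuRF1 +/+ hearts, and 0.852% and 0.982% in MuRF1 -/- hearts). Acsf2, an acyl-CoA synthetase, rose by 0.26 and 0.34 at 3 weeks (adjusted p = 0.0351 and 0.00852), Acsm5, a medium-chain synthetase, fell by 0.55 at 3 weeks in MuRF1 -/- hearts (adjusted p = 0.0425), and Acot11, a thioesterase, fell by 0.42 at 8 weeks in MuRF1 +/+ hearts (adjusted p = 0.0327). The call of Acsm5 held under 5 of 20 other settings, with values from -3.24 with Agilent's log ratio to -0.26 without chow replicate 3 (adjusted p = 0.0157 and 0.334), and was also lost without any 1 of the 4 hearts at 3 weeks. That of Acot11 held under 6 of 19, from -0.87 to -0.35, and was lost without 8-week replicates 2 or 3 or any chow heart. Acsf2 in MuRF1 +/+ hearts was lost without 3-week replicates 1 or 2 or chow replicates 1 or 3, and with Agilent's log ratio it rose by 1.87 and 1.99 in MuRF1 +/+ and MuRF1 -/- hearts.

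Of 29 enzymes of the tricarboxylic acid cycle and respiratory chain, 1 rose and 1 fell, 3 rose and 1 fell, 0 rose and 3 fell, and 0 passed (0 at an unadjusted p under 0.05 by limma), in the order 3 weeks MuRF1 +/+, 3 weeks MuRF1 -/-, 8 weeks MuRF1 +/+ and 8 weeks MuRF1 -/-. The shares of all genes higher and lower were 12% and 12.3%, 14.2% and 12.1%, 5.26% and 8.72%, and 0.852% and 0.982%. Ogdh, of the oxoglutarate dehydrogenase complex, fell by 1.00 and 0.84 at 3 weeks and by 0.89 at 8 weeks in MuRF1 +/+ hearts (adjusted p = 0.0021, 0.00675 and 0.0146). Cycs, cytochrome c, fell by 0.93 at 8 weeks in MuRF1 +/+ hearts (adjusted p = 0.00435). The cytochrome c oxidase subunits Cox4i1 and Cox5b rose by 0.39 in MuRF1 +/+ and 0.54 in MuRF1 -/- hearts at 3 weeks (adjusted p = 0.0303 and 0.0274). Calls were lost for Cox4i1 without 3-week replicates 1 or 4 or chow replicates 1 or 2, for Cox5b without 3-week replicate 4 or any chow heart, and for Ogdh at 8 weeks without 8-week replicate 2 or chow replicate 1 (adjusted p up to 0.26, 0.178 and 0.183 over the settings tried).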

How the data were processed

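Per the file headers, Agilent Feature Extraction 9.5.3.1 wrote the deposited spot intensity values and 0 or 1 flags of 20 arrays of 2 colours (design 014868). Agilent's log10 ratio, after background subtraction and dye normalization per the file headers, and the authors' deposited log2 table (processing not stated in any source used here) served as alternatives. Per the labels, RNA (50 ng) was extracted with a Qiagen kit, and the channel labels give Cy5 for heart, whereas the protocol text names Cy3. The channel labels set the direction, and no dye swap is labelled.

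Intensities were background-corrected by normexp (offset 50, leaving out 7 spots on MuRF1 -/- chow replicate 2 whose local background exceeded their signal by more than 50) and normalized by loess within arrays in limma 3.58.1 under R 4.3.3. Control spots had weight 0, and outlier flags removed 105 to 423 spots an array. A gene was represented by its brightest heart probe which had to be well above background on 3 or more arrays for a test. A single limma fit of 6 group means (moderated by mean intensity) gave 12 comparisons, adjusted by Benjamini-Hochberg over 14556 genes, with a threshold of 0.05. All members matched a name in the files or a synonym in the RefSeq table of GRCm38.p6. The arrays fell into 5 sets of 4 by the scan date in the header. These sets are called scan sets here and not slides, since for 4 arrays the header names another slide.

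The text names all 34 members, Trim63 and Pdk4 as checks, and up to 2 called genes per related list and diet comparison, those with the largest change. It gives values per heart for members called against chow, and for others (Hadhb, Mlycd, Acss1 and those called between 3 and 8 weeks) chosen after their values were seen, as were Ppara and Ppargc1a. Members and lists were chosen with earlier results of these data known. The series text gives 3 to 8 weeks as an age and 2 to 3 replicates, whereas the sample labels give weeks on the diet.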

Additional observations from a re-analysis of the deposited data

Results flagged for a closer look

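Among the 67 groups of 4 hearts, 4 held a heart far from the other 3 by Dixon's test, where chance gives about 1 in 20. Cpt1b was highest in MuRF1 -/- 3-week replicate 4, the array that stood apart, at 2.51, with the nearest heart at 2.13 and the lowest at 2.08. Cpt2 was highest in MuRF1 +/+ 3-week replicate 3 at 2.49, with the others between 2.37 and 2.38. Acad10 was highest in MuRF1 -/- 3-week replicate 3 at 0.22, with the others between -0.043 and -0.0050. Echs1 was highest in MuRF1 -/- 3-week replicate 2 at 0.92, with the others between 0.73 and 0.74.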

How the results depend on the processing

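All members were bright enough in heart to be tested, and 0 heart spots were saturated. Of 23 calls of members, 3 held under every setting tried (Acads, Acad10 and Mlycd between 3 and 8 weeks in MuRF1 -/- hearts), 20 were lost under at least 1 setting, 14 under at least 5, and 0 turned. Of the 23, 6 held with the Y-linked covariate, 10 with the deposited values and 18 without the 2 arrays that stood apart. Of 30 calls of related genes, 3 held under every setting, 27 were lost under at least 1, 12 under at least 5, and 0 turned. The cause of a lost call was not tested.

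Leaving out 1 heart at a time, the members past the threshold numbered 2 to 3 (3 weeks MuRF1 +/+), 0 to 15 (8 weeks MuRF1 +/+), 1 to 6 (3 weeks MuRF1 -/-), 0 to 0 (8 weeks MuRF1 -/-), 0 to 5 (8 against 3 weeks MuRF1 +/+), 6 to 11 (8 against 3 weeks MuRF1 -/-), 0 to 19 (genotype at 8 weeks) and 0 to 6 (difference of 8-week responses), and 0 in the other 4 comparisons. The count of 15 came without MuRF1 +/+ 8-week replicate 1, and those of 19 and 6 as well. Shares of all genes without single hearts are not given here. Without MuRF1 +/+ chow replicate 3 none passed at 8 weeks. At 3 weeks in MuRF1 -/- hearts leaving out 3-week replicate 4 or chow replicate 2 gave 3 each, and chow replicate 3 gave 1. Between 3 and 8 weeks in MuRF1 +/+ hearts 0, 1 and 1 passed without 3-week replicates 1, 2 and 3, and 5 without either 8-week replicate 1 or 2.

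At 3 weeks in MuRF1 +/+ hearts (3 members) the count was 1 with the authors' deposited values, 11 with array weights, 11 with only the groups compared, 9 without the 2 arrays that stood apart and 0 with the Y-linked covariate. At 8 weeks in MuRF1 +/+ hearts (3) it was 1 with normexp on all spots, 0 with the deposited values, 16 with array weights, 0 with only the groups compared and 0 with the covariate. At 3 weeks in MuRF1 -/- hearts (5) it was 1 with normexp on all spots, 2 with the heart channel alone and 1 with the deposited values. There it was also 3 with scan set as a block, 10 with array weights, 10 without the 2 arrays and 0 with the covariate. At 8 weeks in MuRF1 -/- hearts (0) it was 1 with array weights and 1 without the 2 arrays. For 8 against 3 weeks in MuRF1 +/+ hearts (3) it was 1 with normexp on all spots, 5 with Agilent's log ratio and 1 without a filter on dim probes. There it was also 9 with array weights, 0 with only the groups compared and 5 without the 2 arrays. For 8 against 3 weeks in MuRF1 -/- hearts (9) it was 5 with scan set as a block, 14 with array weights and 4 with the covariate. For genotype at 8 weeks (0) it was 1 with Agilent's log ratio, 1 with the heart channel alone and 11 with array weights, and for the difference of 8-week responses (0) 8 with array weights. The counts in this paragraph are not set against those of all genes.

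Hearts were treated as unpaired. In no comparison did the deviations of every pair of equal replicate number correlate above 0.1. The correlations ran from -0.53 to 0.45 over 3 or 4 pairs a comparison, which cannot exclude pairing. With the replicate block 3, 3, 4 and 0 members passed against chow (3 and 8 weeks MuRF1 +/+, 3 and 8 weeks MuRF1 -/-), 4 and 9 between 3 and 8 weeks, and 0 elsewhere. The authors' deposited columns had medians from -0.006 to 0.009 and rose with Agilent's log ratio, so their direction is settled while their scale and centring are unknown. The slope was 0.445 for MuRF1 -/- chow replicate 2 and 0.766 to 0.891 for the other arrays. The SD of that column was 0.417, against 0.661 to 0.827 in the others. Comparisons with MuRF1 -/- chow under the deposited values include that array.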
